A study of Homo sapiens with 2 samples.

Results

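The tetraspanins are membrane proteins that cross the membrane several times and gather partner proteins into patches of the cell surface. They bind integrins and proteases, and several are carried in lysosomes, melanosomes and extracellular vesicles. Their transcripts were compared between IGR37 and IGR39, human melanoma cell lines known as a pair from the same patient. IGR37 was derived from a lymph node metastasis, and IGR39 from a primary tumour of the skin that the labels call achromic, meaning without pigment. No genetic change or drug treatment is given for either line. Both were grown in DMEM with 10% serum, and each was measured on 1 Affymetrix Human Genome U133 Plus 2.0 array.

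The set was chosen by gene symbol. A gene was a member if its symbol was TSPAN and a number, with 1 such gene left out by the rule, or was CD9, CD37, CD53, CD63, CD81, CD82, CD151, UPK1A, UPK1B, PRPH2 or ROM1. This gave 31 of 19775 named genes, with 58 of the 54675 probe sets. The antisense transcripts TSPAN16-AS1 and CD81-AS1 carry similar symbols but are not tetraspanins, and they were not counted. Each gene took the value of 1 probe set, the one whose mean of the 2 arrays was highest. Values are RMA levels on the log2 scale, and a difference is the level in IGR37 minus that in IGR39, so that 2-fold corresponds to 1.

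No difference could be tested, since each line had a single array. Nothing here measures the spread between cultures, and a difference may reflect the cultures as well as the lines. In a bulk culture, fewer expressing cells and less RNA per cell cannot be told apart. As measures of technical spread, the 27 poly-A spike-in control probe sets differed by -0.47 to 0.68, with a median of 0.23. The probe sets of a gene differed from one another with a pooled SD of 0.40 over 3178 genes. Melanocyte lineage markers were read beside the labels, though they cannot by themselves identify either line. All 7 measured markers reached log2 6 in IGR37, at 8.38 to 13.05, but only MITF did so in IGR39, at 7.57. PMEL, MLANA, TYR, TYRP1, SOX10 and S100B were near background in IGR39. None of 10 leukocyte markers reached log2 6 in either line. Of 8 fibroblast and endothelial markers, only LUM reached it, at 6.26 in IGR37 and 3.41 in IGR39. Of 6 keratinocyte markers only KRT10 reached it, at 9.08 in IGR37 and 9.13 in IGR39.

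Of the 31 members, 16 reached log2 6 in the brighter line (51.6%), against 43.0% of all named genes. Of these 16, 5 were at least 2-fold higher in IGR37, where 11.4% of the 8501 genes at this level were. They were TSPAN3, TSPAN13, TSPAN6, TSPAN33 and CD81. Another 3, TSPAN18, TSPAN5 and TSPAN17, were at least 2-fold lower, against 9.50% of all genes. The other 8 lay within 2-fold. Together 8 of the 16 were past 2-fold, against 21.0% of all genes. The members did not share a direction, since their median difference was 0.01, with 8 positive and 8 negative differences, and the median of all genes was 0.07. TSPAN5 and TSPAN18 reached log2 6 through IGR39 alone and so had to be lower in IGR37. Among the 14 members at or above log2 6 in both lines, 5 were at least 2-fold higher and 1 was lower, while over all 6931 such genes 7.26% were higher and 5.35% lower. The median of the members depended on which of them were counted, and was 0.99 with a minimum of log2 7 and 0.69 without probe sets that share sequence with other transcripts (_x_at and _s_at).

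**Figure D1:**
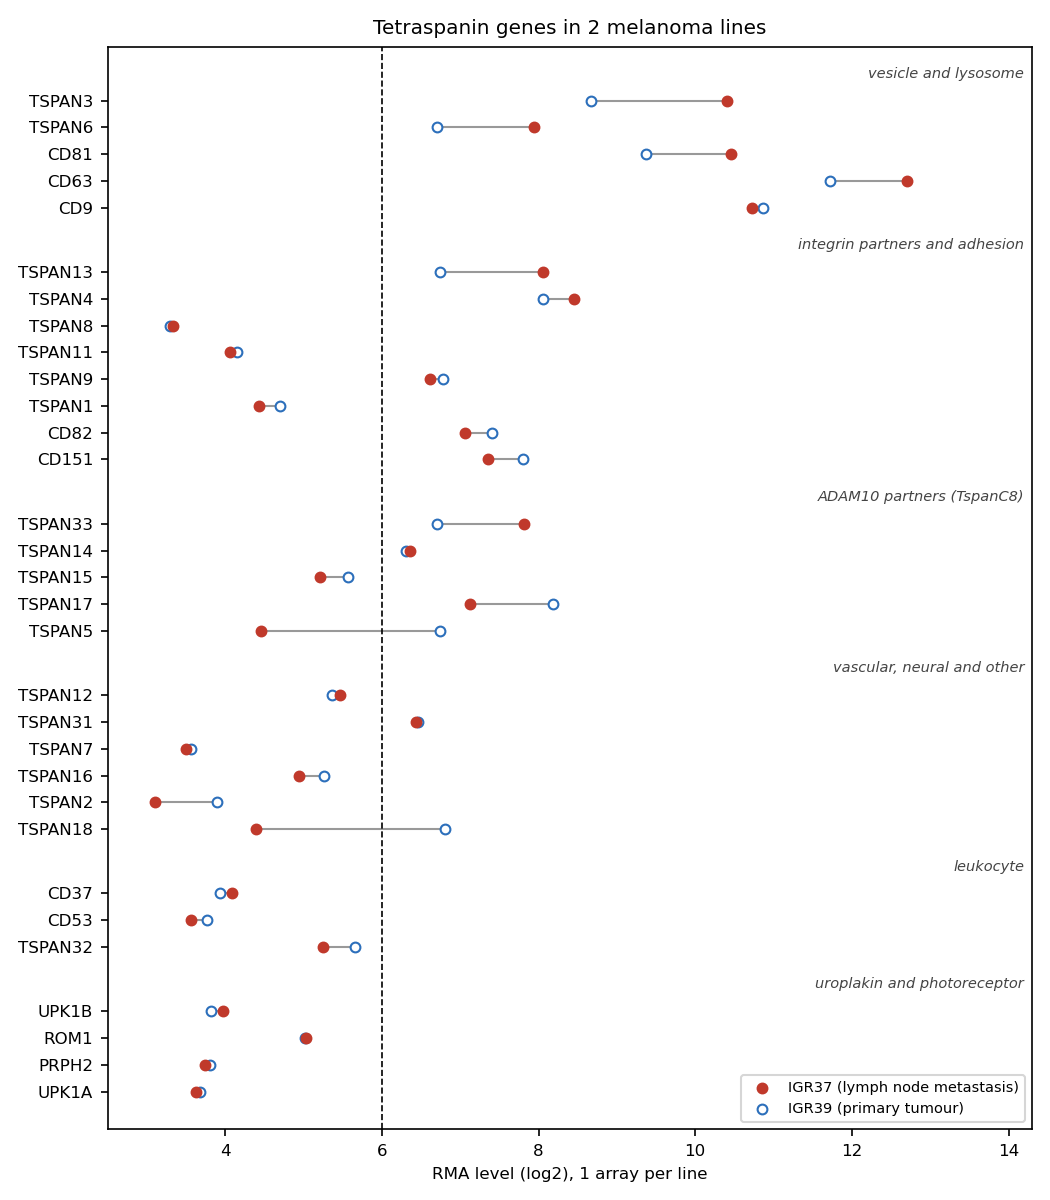
Log2 RMA level of each of the 31 tetraspanin genes, on 1 array per line, with filled circles for IGR37 and open circles for IGR39. Genes are grouped by the role assigned to them here, and the dashed line marks log2 6. The longest lines to the left are those of TSPAN18 and TSPAN5, lower in IGR37, and TSPAN3 has the longest to the right.

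Tetraspanins grouped under vesicles and lysosomes were mostly higher in IGR37. The groups were chosen with earlier results of these data known, and their counts and medians depend on which members were placed in each. All 5 members of this group were at or above log2 6 in both lines, 3 were at least 2-fold higher, and the median difference was 1.08. Over all 6931 genes at or above log2 6 in both lines, 7.26% were higher and the median was 0.07. The count of 3 became 2 after removing a trend with level, centring on housekeeping genes or averaging all probe sets of a gene. It became 4 after centring the arrays on their medians. TSPAN3, a widely expressed tetraspanin, was at 10.40 in IGR37 and 8.67 in IGR39, a difference of 1.73 or 3.33-fold. Its difference exceeded those of 95.2% of the 8501 genes at log2 6 in the brighter line. A second bright probe set for TSPAN3 was at 9.68 in IGR37 and 7.74 in IGR39, a difference of 1.94. The other 3 TSPAN3 probe sets were near background in both lines, and averaging all 5 lowered the difference to 0.78.

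TSPAN6, which takes part in sorting cargo into multivesicular bodies, was at 7.94 in IGR37 and 6.70 in IGR39, a difference of 1.24. Its other probe set gave 8.24 in IGR37 and 6.32 in IGR39, a difference of 1.92, so both were past 2-fold. CD81, an extracellular vesicle marker and a receptor component of hepatitis C virus, was at 10.46 in IGR37 and 9.37 in IGR39. Its difference of 1.08 was just past 2-fold, and fell below that limit when the arrays were centred on housekeeping genes (0.90) or a trend with level was removed (0.93).

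CD63, a lysosomal tetraspanin that sorts the melanosome protein PMEL inside pigment cells, lay just within the limit. Its level was 12.71 in IGR37 and 11.72 in IGR39, a difference of 0.99 or 1.98-fold, which passed the limit at 1.01 after centring the arrays on their medians. CD81 and CD63 each had 1 probe set. CD9, the remaining vesicle marker, differed little, at 10.72 in IGR37 and 10.86 in IGR39. The difference of -0.14 lay inside the range of the spike-in controls, so the common vesicle markers CD9, CD63 and CD81 did not differ by the same amount.

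RefSeq promoter sequences (GRCh38.p14) were read for the members, as windows from 250 bases before to 50 after a gene's start, and 23 of the 31 genes had an entry. The E-box CACGTG, a motif that MITF and its relatives can bind, was searched because MITF was at 11.81 in IGR37 and 7.57 in IGR39. Its reverse complement is the same letters. It lay in 3 of the 43 member windows, from TSPAN4, TSPAN6 and CD63, a share close to the 7.26% of all 35116 windows. The windows of TSPAN6 and CD63 are shown, with the E-box in capitals, because they belong to the vesicle and lysosome group described here. The TSPAN6 window is chrX:100637055-100637354 and the CD63 window is chr12:55728960-55729259, both on the minus strand and written 5′ to 3′.
TSPAN6: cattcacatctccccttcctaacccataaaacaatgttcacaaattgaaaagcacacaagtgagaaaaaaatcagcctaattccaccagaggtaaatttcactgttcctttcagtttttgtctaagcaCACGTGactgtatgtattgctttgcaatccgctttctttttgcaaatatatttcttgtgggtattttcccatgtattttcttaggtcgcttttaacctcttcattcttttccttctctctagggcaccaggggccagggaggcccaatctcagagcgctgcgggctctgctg
CD63: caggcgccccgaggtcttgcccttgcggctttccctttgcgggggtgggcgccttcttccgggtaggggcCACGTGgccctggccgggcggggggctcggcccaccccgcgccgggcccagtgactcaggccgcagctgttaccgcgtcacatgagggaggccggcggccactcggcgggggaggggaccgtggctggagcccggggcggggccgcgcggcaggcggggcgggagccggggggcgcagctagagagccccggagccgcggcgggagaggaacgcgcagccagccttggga
TSPAN6 has 2 windows and CD63 has 8, and the E-box lay in 1 window of each. A match shows only that the letters are there, and whether MITF takes part in the levels of these genes was not tested. The related E-box CATGTG, searched on both strands, lay in 5 member windows, from CD9, CD53, CD63 and UPK1B, and in 11.1% of all windows. Of these genes, CD9 was nearly level and CD53 and UPK1B were under log2 6 in both lines. TSPAN13 and TSPAN33, which were also higher in IGR37, had no CACGTG in their window. TSPAN3 and CD81, higher in IGR37 and of the vesicle and lysosome group, had no promoter entry and were not searched. The AP-1 motif TGANTCA, the same on both strands, lay in 2 member windows, from CD63 and ROM1, and in 7.71% of all windows.

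The tetraspanins that bind the protease ADAM10 divided. ADAM10 cleaves proteins off the cell surface, and the TspanC8 tetraspanins carry it out of the endoplasmic reticulum and steer it to different substrates. Of the 5 members, 4 reached log2 6, with 1 at least 2-fold higher in IGR37, 2 lower and 1 within 2-fold. Over all 8501 genes at this level, 11.4% were higher and 9.50% lower. TSPAN5 reached log2 6 through IGR39 alone, so its direction was fixed. Of the 3 at log2 6 in both lines, 1 was higher and 1 lower, against 7.26% and 5.35% of all such genes. TSPAN5, which promotes NOTCH cleavage by ADAM10, was at 4.46 in IGR37 and 6.74 in IGR39, a difference of -2.29. Another TSPAN5 probe set was at 3.74 in IGR37 and 7.25 in IGR39, a difference of -3.50, and the third gave 4.34 in IGR37 and 6.51 in IGR39, a difference of -2.16. All 3 TSPAN5 probe sets thus had IGR37 near background and IGR39 above log2 6, so the size of the difference is inexact.

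TSPAN17, which acts with ADAM10 on VE-cadherin in endothelial cells, was at 7.13 in IGR37 and 8.19 in IGR39, a difference of -1.06. Its second probe set was near background, at 4.58 in IGR37 and 4.38 in IGR39, and the mean of both gave -0.43. TSPAN33, a TspanC8 member known from red cell precursors and activated B cells, went the other way, at 7.81 in IGR37 and 6.70 in IGR39. Its difference of 1.12 became 0.93 after centring on housekeeping genes. TSPAN14 was nearly level, at 6.36 in IGR37 and 6.30 in IGR39, with 0.40 on its second probe set. TSPAN15, which steers ADAM10 to N-cadherin, stayed under log2 6, at 5.21 in IGR37 and 5.57 in IGR39.

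Promoter windows of the 3 ADAM10 partners past 2-fold are shown with every CG in capitals. CG is the site of DNA methylation, which the series as a whole is concerned with and which these arrays do not measure. The windows are chr4:98658562-98658861 on the minus strand for TSPAN5, chr5:176647234-176647533 on the plus strand for TSPAN17 and chr7:129144457-129144756 on the plus strand for TSPAN33.
TSPAN5: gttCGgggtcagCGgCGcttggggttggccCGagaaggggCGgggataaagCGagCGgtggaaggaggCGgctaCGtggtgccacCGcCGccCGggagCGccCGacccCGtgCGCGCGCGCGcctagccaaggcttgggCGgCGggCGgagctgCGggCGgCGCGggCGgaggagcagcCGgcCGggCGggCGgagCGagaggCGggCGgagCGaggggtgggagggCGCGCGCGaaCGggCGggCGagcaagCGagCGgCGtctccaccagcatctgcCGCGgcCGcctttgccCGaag
TSPAN17: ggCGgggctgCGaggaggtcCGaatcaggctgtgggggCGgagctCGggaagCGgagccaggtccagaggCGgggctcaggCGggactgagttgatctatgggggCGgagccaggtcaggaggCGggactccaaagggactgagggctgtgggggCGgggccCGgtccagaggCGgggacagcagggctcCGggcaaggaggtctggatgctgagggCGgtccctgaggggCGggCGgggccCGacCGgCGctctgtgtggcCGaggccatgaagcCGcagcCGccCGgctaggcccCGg
TSPAN33: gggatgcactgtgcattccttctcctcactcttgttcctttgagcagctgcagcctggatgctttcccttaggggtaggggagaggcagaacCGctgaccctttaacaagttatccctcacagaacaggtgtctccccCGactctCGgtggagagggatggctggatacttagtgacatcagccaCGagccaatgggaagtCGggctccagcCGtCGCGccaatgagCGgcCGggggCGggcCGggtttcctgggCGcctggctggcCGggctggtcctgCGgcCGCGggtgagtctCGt
The TSPAN5 window held 50 CG, more than 98.7% of all windows, whose median was 14. The TSPAN17 window held 25 and the TSPAN33 window 18. TSPAN14, which lay within 2-fold, has 3 windows, with 53, 3 and 4 CG. These counts are descriptions of the sequence, and methylation of the windows was not measured.

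**Figure D2:**
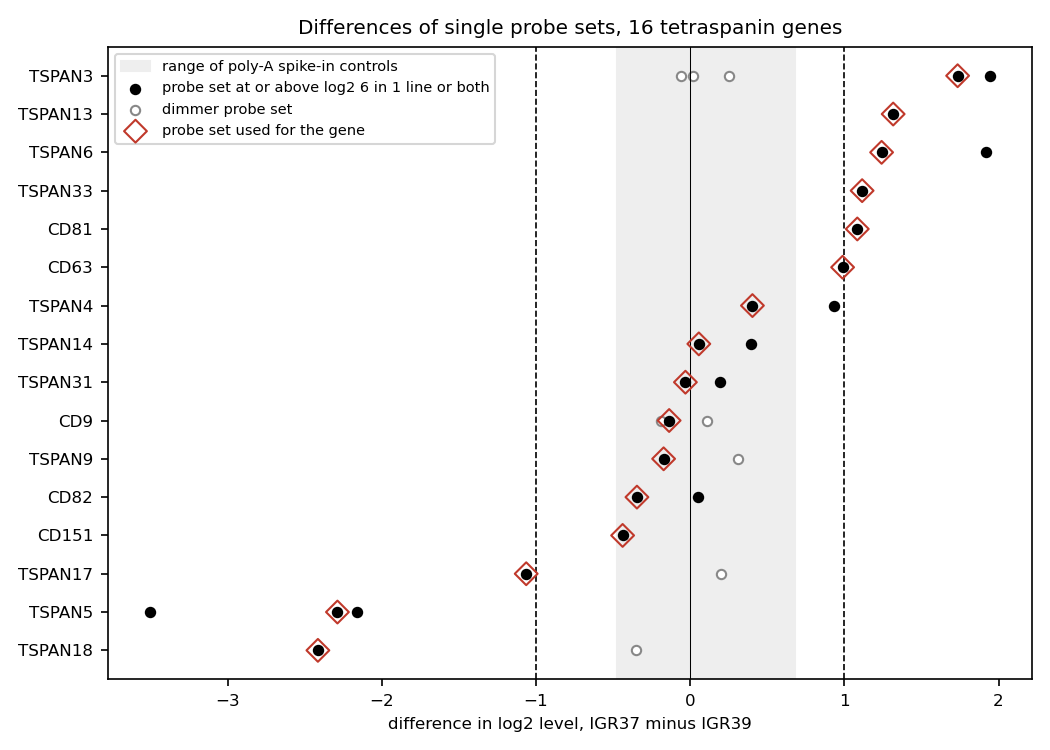
Difference in log2 level, IGR37 minus IGR39, for every probe set of the 16 tetraspanin genes that reached log2 6. Black points are probe sets at that level in either line, open points are dimmer ones, red diamonds mark the probe set used for the gene, dashed lines mark 2-fold and the grey band is the range of the poly-A spike-in controls. All 3 probe sets of TSPAN5 lie left of -2, while for TSPAN18 and TSPAN17 a dimmer probe set lies near 0.

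The tetraspanins grouped here as integrin partners or regulators of adhesion differed little, with 1 exception. Of 8 members, 5 reached log2 6, 1 was at least 2-fold higher in IGR37, 4 lay within 2-fold, and the median difference was -0.17. It was 0.68 without _x_at and _s_at probe sets, where it rests on CD82 and TSPAN13 alone. CD151, which binds laminin-binding integrins tightly, was at 7.36 in IGR37 and 7.80 in IGR39, a difference of -0.44. CD82, first described as a metastasis suppressor in prostate cancer, was at 7.06 in IGR37 and 7.41 in IGR39, a difference of -0.34. Its other probe set gave 6.01 in IGR37 and 5.96 in IGR39, so the probe sets of CD82 did not share a direction. Both genes lay inside the range of the spike-in controls.

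TSPAN4, found on retraction fibres and migrasomes of moving cells, was at 8.46 in IGR37 and 8.05 in IGR39, a difference of 0.40. Its other probe set was at 7.67 in IGR37 and 6.74 in IGR39, a difference of 0.93, so the size depended on the probe set while the direction did not. TSPAN9, a platelet tetraspanin, was at 6.61 in IGR37 and 6.78 in IGR39, and its dimmer probe set gave a difference of 0.31. TSPAN13 was the exception, at 8.06 in IGR37 and 6.74 in IGR39, a difference of 1.32 or 2.49-fold, on 1 probe set. TSPAN1, TSPAN8 and TSPAN11 stayed under log2 6 in both lines.

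TSPAN18, a tetraspanin of endothelial cells linked to calcium entry, was lower in IGR37. It was at 4.39 in IGR37 and 6.80 in IGR39, a difference of -2.41, whose size is inexact because IGR37 was near background. The second TSPAN18 probe set was near background, at 4.26 in IGR37 and 4.61 in IGR39, and the mean over both was -1.38, with neither line then at log2 6. This result therefore rests on 1 probe set. TSPAN31, whose gene lies beside CDK4 on chromosome 12, was at 6.43 in IGR37 and 6.46 in IGR39, and its other probe set differed by 0.19.

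The 15 members below log2 6 in both lines were CD37, CD53, PRPH2, ROM1, UPK1A, UPK1B, TSPAN1, TSPAN2, TSPAN7, TSPAN8, TSPAN11, TSPAN12, TSPAN15, TSPAN16 and TSPAN32. They lay between 3.10 and 5.46 in IGR37 and between 3.29 and 5.65 in IGR39, with differences of -0.79 to 0.16. The leukocyte tetraspanins CD37, CD53 and TSPAN32 were among them, as were the uroplakins UPK1A and UPK1B of the bladder lining and the photoreceptor disc proteins PRPH2 and ROM1. TSPAN2, an oligodendrocyte tetraspanin, had the most negative difference of the 15, at 3.10 in IGR37 and 3.89 in IGR39. RMA compresses differences at such levels.

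Genes of the set lie together at several places. Chromosome 11 carries 7 members and chromosome 12 carries 6. In the RefSeq order of protein-coding genes, CD82 and TSPAN18 are neighbours on chromosome 11, with differences of -0.34 and -2.41. TSPAN32 and CD81 are also neighbours, TSPAN32 under log2 6 in both lines and CD81 with a difference of 1.08. CD151 and TSPAN4, with POLR2L between them, had differences of -0.44 and 0.40. None of these 3 neighbouring pairs differed by a like amount.

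Lists of genes that work with tetraspanins were set beside the members. Among proteins that bind tetraspanins directly, 4 of the 13 at log2 6 were at least 2-fold higher in IGR37, 2 were lower, and the median was 0.45, against 11.4% higher and 9.50% lower of all genes. IGSF8 and KIT reached log2 6 through IGR37 alone and IFITM1 through IGR39 alone. Of the 10 at log2 6 in both lines, 2 were higher and 1 lower, against 7.26% and 5.35% of all such genes. The count of 4 higher became 3 after removing a trend with level or centring on housekeeping genes. IGSF8, an immunoglobulin protein bound by CD9 and CD81, was at 8.73 in IGR37 and 5.51 in IGR39. PTGFRN, its relative and another CD9 and CD81 partner, differed less, at 7.12 in IGR37 and 6.68 in IGR39. IGSF3, of the same protein family, was at 8.89 in IGR37 and 7.53 in IGR39, so these 3 relatives shared a direction but not a size.

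KIT, a receptor tyrosine kinase found in complexes with tetraspanins, was at 10.04 in IGR37 and 5.95 in IGR39. IFITM1, an interferon-induced protein that associates with CD81, was at 4.11 in IGR37 and 6.53 in IGR39. The hyaluronan receptor CD44 was at 9.57 in IGR37 and 11.91 in IGR39. ADAM10 itself was at 9.64 in IGR37 and 8.58 in IGR39, a difference of 1.06, with 0.98 to 1.44 over its 3 probe sets at this level. The protease thus lay near the 2-fold limit on the higher side, while its partners TSPAN5 and TSPAN17 were lower and TSPAN33 was higher.

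Of 9 integrin genes at log2 6, 7 were lower in IGR37 by 2-fold or more, against 9.50% of all genes, and 1 was higher, with a median of -2.33. ITGA2, ITGA3 and ITGA4 reached log2 6 through IGR39 alone and ITGA7 through IGR37 alone, which fixed their direction. Of the other 5, at log2 6 in both lines, 4 were lower and 0 higher, against 5.35% lower among all such genes. ITGA3 and ITGA6, laminin-binding partners of CD151, were among the 7 lower genes. ITGA3 was at 4.59 in IGR37 and 8.47 in IGR39, and ITGA6 was at 6.73 in IGR37 and 9.06 in IGR39, a difference of -2.33. Their shared beta subunit ITGB1 was at 9.85 in IGR37 and 11.91 in IGR39. ITGA7, another laminin-binding subunit, was at 8.60 in IGR37 and 5.37 in IGR39, so the laminin-binding alpha subunits did not share a direction. ITGA4 was at 3.54 in IGR37 and 7.50 in IGR39, ITGA2 at 4.29 in IGR37 and 6.63 in IGR39, and ITGA5 at 6.38 in IGR37 and 8.76 in IGR39. CD151 differed by -0.44 beside these.

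Of 11 known ADAM10 substrates at log2 6, 6 were at least 2-fold lower in IGR37, against 9.50% of all genes, 1 was higher, and the median was -1.51. AXL, CDH2 and CX3CL1 reached log2 6 through IGR39 alone and CDH1 through IGR37 alone, so their direction was fixed. Of the 7 at log2 6 in both lines, 4 were lower and 0 higher, against 5.35% and 7.26% of all such genes. CD44, counted among the direct partners as well, was among the lower substrates. Without _x_at and _s_at probe sets, 3 were lower and the median was -0.75. AXL was at 3.68 in IGR37 and 11.24 in IGR39, and the adhesion protein ALCAM at 6.15 in IGR37 and 9.62 in IGR39. CDH2 (N-cadherin) was at 5.72 in IGR37 and 8.90 in IGR39. The probe sets at log2 6 differed by -7.55 to -3.08 for AXL and by -3.18 to -1.75 for CDH2. CDH1 (E-cadherin) was at 6.56 in IGR37 and 3.07 in IGR39. The sizes for AXL and CDH1 are inexact because the dimmer line was near background. The prion protein gene PRNP was at 9.97 in IGR37 and 11.62 in IGR39. These are levels of mRNA, and shedding of the proteins was not measured.

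Genes of extracellular vesicle biogenesis divided. Of 23 at log2 6, 5 were higher in IGR37 by 2-fold or more and 5 lower, against 11.4% and 9.50% of all genes. The median of 0.15 turned to -0.61 without _x_at and _s_at probe sets. The split depended on the scaling, as centring on housekeeping genes gave 3 higher and 7 lower, and removing a trend with level gave 3 higher and 6 lower. RAB27B, SDC1, SDC2 and PLD2 reached log2 6 through IGR39 alone and SDC3 through IGR37 alone. Of the 18 at log2 6 in both lines, 4 were higher and 2 lower, against 7.26% and 5.35% of all such genes. The RAB27 GTPases, which dock vesicles and, for RAB27A, melanosomes, went opposite ways. RAB27A was at 10.87 in IGR37 and 7.33 in IGR39, and RAB27B at 3.58 in IGR37 and 8.15 in IGR39. RAB31, which drives vesicle formation, was at 6.16 in IGR37 and 8.57 in IGR39.

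The syndecans, whose tails bind syntenin, were lower in IGR37 for SDC1, SDC2 and SDC4 and higher for SDC3. SDC1 was at 5.81 in IGR37 and 7.07 in IGR39. SDC4 was at 6.30 in IGR37 and 9.59 in IGR39, and SDC2 at 5.93 in IGR37 and 8.07 in IGR39, while SDC3 was at 7.59 in IGR37 and 5.99 in IGR39. SDCBP, which encodes syntenin, an adaptor that also binds CD63, was at 12.26 in IGR37 and 11.13 in IGR39. Its difference of 1.13 stood beside 0.99 for CD63, 1.08 for CD81 and -0.14 for CD9. Centring on housekeeping genes lowered every difference by 0.19, which took CD63 to 0.80 and CD81 to 0.90.

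The pigment cell genes linked to CD63 were higher in IGR37 for 4 of 5 members at log2 6, against 11.4% of all genes. PMEL, MLANA and TYRP1 reached log2 6 through IGR37 alone and had to be higher there. These 3 are also among the melanocyte lineage markers. Of the 2 at log2 6 in both lines, 1 was higher and 0 lower, against 7.26% and 5.35% of all such genes. PMEL, the amyloid cargo that CD63 sorts, was at 12.47 in IGR37 and 4.29 in IGR39. MLANA was at 12.83 in IGR37 and 3.33 in IGR39, and TYRP1 at 13.05 in IGR37 and 3.15 in IGR39. With IGR39 near background, no exact fold can be given for these 3 genes. BACE2, the protease that cleaves PMEL, was at 11.09 in IGR37 and 8.62 in IGR39. APOE, which takes part in PMEL amyloid formation on vesicles, was at 6.81 in IGR37 and 6.05 in IGR39. CD63 was thus bright in both lines, while PMEL was near background in IGR39.

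**Figure D3:**
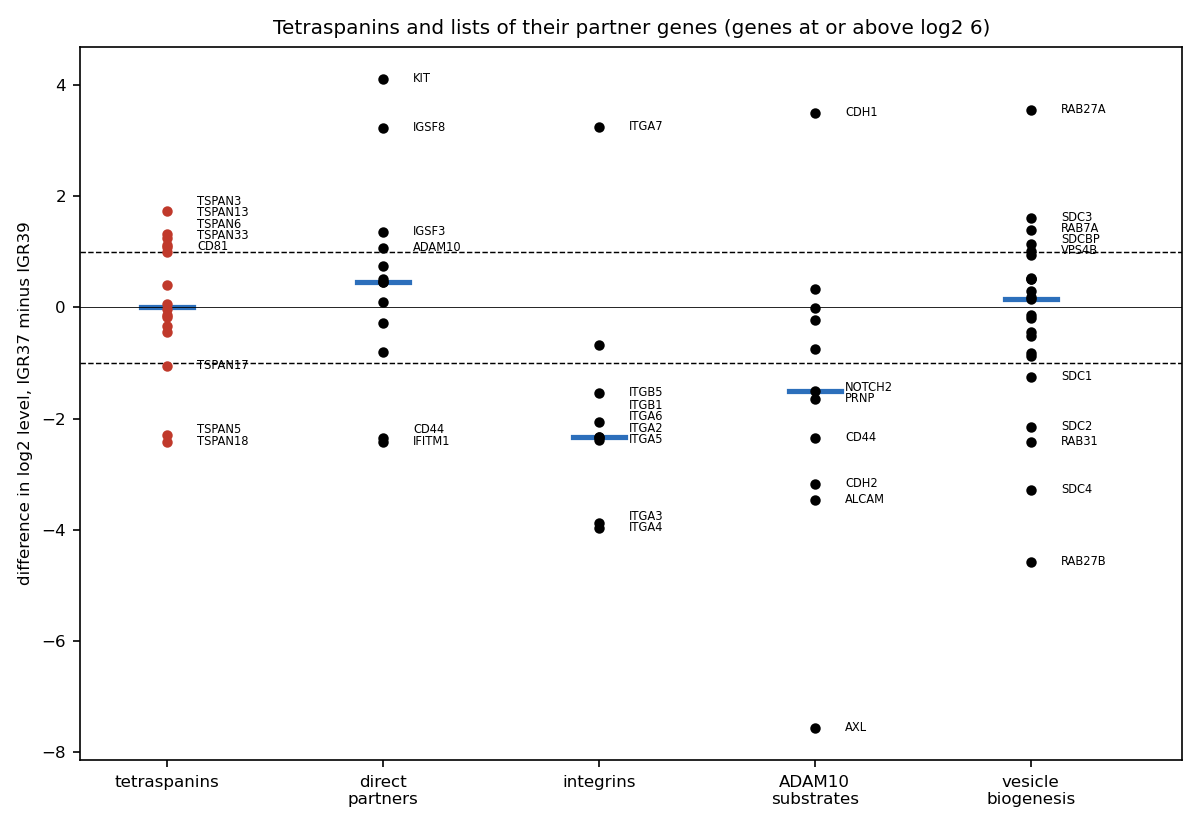
Difference in log2 level, IGR37 minus IGR39, for the tetraspanins in red and for 4 lists of partner genes in black, each point a gene at or above log2 6 in the brighter line. Blue bars are medians, dashed lines mark 2-fold, and genes past it are named. The tetraspanin median is 0.01 and the integrin median is -2.33.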

How the data were processed

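RNA of each line was hybridised to 1 array. The authors deposited 1 log2 level for each probe set. Per the submitters' processing notes, these came from RMA as run in affy; neither the versions nor the set of arrays normalised together is stated there. RMA removes overall brightness differences between arrays and compresses differences between low levels. Depth has no meaning for arrays, and their number limits the precision.

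Names came from the annotation of the array platform, and were brought up to date by gene identifier through RefSeq (GRCh38.p14); all 31 members matched. Only the 41091 probe sets with 1 symbol gave gene values. Genes under log2 6 in both lines were left out of counts and medians, and a call meant 2-fold. With 1 array per line no test was run. Every member is named. Partner lists name at most 6 genes by size of difference, plus ADAM10, ITGB1, ITGA3, ITGA6, IGSF8, PTGFRN, PMEL, SDCBP and TM4SF1; SDC1, PLD2 and CX3CL1 were added after their values were seen. The members and lists were chosen with earlier results of these data known. Members of a list without a named probe set were not analysed here. The alternatives were 8 settings of the minimum level, the probe sets and the scaling. The counting was tested on simulated data. Python 3.11.15, numpy 2.4.6, pandas 2.3.3, statsmodels 0.14.6 and matplotlib 3.10.9 were used.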

Additional observations from a re-analysis of the deposited data

How the results depend on the processing

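Counts and medians of the members, of their groups and of the partner lists were recomputed under 8 settings. Of the tetraspanins, 5 were at least 2-fold higher in IGR37 with a minimum of log2 5 or 7 or none, and 3 did after centring on housekeeping genes. That centring moved the median of all genes by -0.19, and the share of genes past 2-fold that were higher was 41.0% with it and 54.6% without. With a minimum of log2 7, 1 tetraspanin was lower and the median was 0.99, since TSPAN5 and TSPAN18 left the count. The ADAM10 partners then had 1 lower and a median of 0.026, the direct partners 1 lower, the ADAM10 substrates 0 higher, and the pigment cell genes a median of 8.84. With no minimum, medians were -0.23 for the ADAM10 substrates and 5.33 for the pigment cell genes. With the mean over all probe sets, 1 tetraspanin, 1 ADAM10 partner and 0 of the vascular, neural and other group were lower, and 0 ADAM10 substrates were higher. With _x_at and _s_at probe sets left out, the medians were 0.69 for the tetraspanins, 0.68 for the integrin partner group, -0.61 for vesicle biogenesis, -0.75 for ADAM10 substrates and 7.43 for pigment cell genes. In that setting 1 direct partner was lower, 3 vesicle genes and 0 ADAM10 substrates were higher, and 3 ADAM10 substrates were lower. Centring on housekeeping genes left 0 ADAM10 partners higher and 3 vesicle genes higher, and removing a lowess trend also left 3 vesicle genes higher. The housekeeping list shares RAB7A and CHMP2A with the vesicle genes. The causes were not tested, beyond the genes that each setting leaves out. No paired analysis was possible because each line has 1 array.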

Other observations

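The L6 family encodes membrane proteins of similar topology that are not tetraspanins. None of its 5 measured genes reached log2 6 in either line. TM4SF1, its best known member in tumours, was at 4.90 in IGR37 and 4.21 in IGR39. The antisense transcript CD81-AS1 was at 3.45 in IGR37 and 3.37 in IGR39, and TSPAN16-AS1 was at 4.02 in both lines.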
